A study of Homo sapiens with 6 samples.

Results

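The genes described here are 10 genes of carbonyl reduction and antioxidant defence, namely the aldo-keto reductase genes AKR1C1, AKR1C2, AKR1C3 and AKR1B1, the NRF2 target genes NQO1, HMOX1, GCLM, TXNRD1 and SRXN1, and NFE2L2, which encodes NRF2. They were chosen from 58243 gene identifiers by name, starting from AKR1C2, whose low counts in PRL3 cells had already been seen in these data. The fold change of AKR1C2 is therefore given as a description without a test, and the question for the other 9 was whether its paralogs and the wider NRF2 response were lower as well. The measurements were 4sU-seq read counts from A375 cells, a human melanoma cell line, in 6 libraries. The 3 EV libraries came from cells stably transfected with an empty vector, and the 3 PRL3 libraries from cells stably transfected with a plasmid for HA-tagged human PRL3, a phosphatase encoded by PTP4A3. Both lines were kept under 100 µg/ml hygromycin B and received 500 µM 4-thiouridine for 20 min. The newly made RNA that carried it was biotinylated, purified on streptavidin and depleted of ribosomal RNA. The counts used here are of reads on exons. The study turned to intronic reads for its later work, naming splicing during transcription and some carried-over mRNA as possible confounders. Their part in the results below was not tested. Whether either line was 1 clone, and whether the libraries of a group came from separate cultures, is not given in the sources used here, so the p-values below measure only the spread between these libraries.

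NRF2 is a transcription factor that KEAP1 holds in the cytoplasm and hands to a CUL3 ubiquitin ligase for degradation. When electrophiles or oxidants modify KEAP1, NRF2 accumulates, pairs with small MAF proteins and binds antioxidant response elements near genes for glutathione synthesis, thioredoxin reduction, quinone and carbonyl detoxification, heme breakdown and NADPH supply. The AKR1C enzymes reduce ketones and aldehydes, including steroids and prostaglandins, with NADPH, and their genes lie side by side on chromosome 10 and respond strongly to NRF2 in human cells.

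EV libraries held 47158709 to 57952035 reads on genes and PRL3 libraries 36532207 to 56511290. PTP4A3 had 217 ± 59.4 normalized counts in EV libraries and 24387 ± 3796 in PRL3 libraries (SD, n = 3 each), which fits the labels. Normalized counts are reads divided by the TMM-scaled library size and multiplied by its mean. Of the uniquely aligned reads, 28.7% to 41.1% in EV libraries and 62.8% to 69.1% in PRL3 libraries lay on no annotated exon of the right strand. Of 12 melanoma markers, SOX10, AXL, CSPG4 and S100B were abundant, whereas MLANA and TYR had fewer than 10 reads in every library. DCT had 1 to 11 reads per library and PMEL 26 to 61. The summed normalized counts of the 12 were 58616 to 78908 in EV and 39703 to 46243 in PRL3 libraries. Of the 9 tested, 6 were lower and 1, MIA, was higher (log2 fold change 0.88). Lists of 4 leukocyte, 3 endothelial and 4 fibroblast markers summed to 20.9 to 34.1, 60.9 to 115 and 784 to 1038 in EV libraries and to 42.2 to 65.4, 77.2 to 120 and 598 to 659 in PRL3 libraries, and 0 of their 6 tested genes passed the threshold in edgeR, DESeq2 or limma-voom, except that DESeq2 and the unadjusted p of edgeR took 1 fibroblast marker as lower. The 4 epithelial markers summed to 37438 to 48973 in EV and 11768 to 16232 in PRL3 libraries, nearly all of it from the keratin genes KRT8 and KRT18, which were both lower, while EPCAM and CDH1 were near 0. The part of these differences in the results below was not tested.

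The 3 AKR1C genes lie on chromosome 10 of GRCh38, AKR1C1 (ENSG00000187134) at chr10:4963253-4983283 on the plus strand, AKR1C2 (ENSG00000151632) at chr10:4987775-5018031 on the minus strand and AKR1C3 (ENSG00000196139) at chr10:5035354-5107686 on the plus strand. Their closeness is shown by the 250 bases before the RefSeq start of each gene (RefSeq, GRCh38.p14), read 5′ to 3′ on the strand of the gene, with capitals for the longest run of bases that all 3 share.
AKR1C1: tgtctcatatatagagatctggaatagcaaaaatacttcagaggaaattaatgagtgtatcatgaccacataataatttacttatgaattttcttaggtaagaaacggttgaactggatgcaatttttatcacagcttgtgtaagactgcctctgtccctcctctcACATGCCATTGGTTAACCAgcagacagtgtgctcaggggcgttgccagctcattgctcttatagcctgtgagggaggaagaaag
AKR1C2: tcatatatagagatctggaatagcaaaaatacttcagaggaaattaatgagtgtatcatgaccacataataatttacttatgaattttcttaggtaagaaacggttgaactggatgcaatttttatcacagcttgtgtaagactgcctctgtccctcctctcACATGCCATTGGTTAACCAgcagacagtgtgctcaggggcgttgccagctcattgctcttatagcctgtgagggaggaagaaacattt
AKR1C3: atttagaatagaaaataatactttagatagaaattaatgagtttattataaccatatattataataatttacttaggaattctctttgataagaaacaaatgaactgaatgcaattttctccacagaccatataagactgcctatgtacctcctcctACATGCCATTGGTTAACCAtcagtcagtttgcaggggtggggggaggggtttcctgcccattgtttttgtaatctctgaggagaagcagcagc
These windows are chr10:4963165-4963414 for AKR1C1, chr10:5003858-5004107 for AKR1C2 and chr10:5094164-5094413 for AKR1C3, the last at the start of the canonical transcript. The windows of AKR1C1 and AKR1C2 were identical at 245 of 246 aligned bases (99.6%), and those of AKR1C2 and AKR1C3 at 185 of 234 (79.1%). The shared run of 19 bases was found, on either strand, in 3 of 35116 RefSeq promoter windows of this length, which are these 3. In the coding sequences of the canonical transcripts the AKR1C genes were closer to each other than to AKR1B1, with 950 of 969 bases identical between AKR1C1 and AKR1C2, 882 of 969 between AKR1C2 and AKR1C3, and 62.9% identity between AKR1C2 and the more distant AKR1B1 over 928 aligned bases.

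AKR1C2, which reduces dihydrotestosterone and other ketosteroids, had 3542, 2978 and 2667 normalized counts in EV replicates B1, B2 and B3 and 334, 369 and 369 in PRL3 replicates B9, B10 and B11. All PRL3 libraries lay far below all EV libraries, with a mean of 3062 ± 443 (SD, n = 3) in EV and 357 ± 20.4 in PRL3, an 8.57-fold lower value. This difference (log2 fold change -3.10, standard error 0.17) is the one that led to the choice of the genes. The genes whose profiles over the 6 libraries came nearest to that of AKR1C2, each profile centred on its own mean log2 CPM, were NDN, STMN3 and TUBB2B, with root mean square differences of 0.21, 0.23 and 0.24 on the log2 scale, against 0.38 for AKR1C3 and 0.70 for AKR1C1.

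AKR1C3, the prostaglandin F synthase of the cluster, which also makes testosterone from androstenedione, had 698, 725 and 801 normalized counts in the EV libraries and 149, 109 and 134 in the PRL3 libraries. It fell 5.67-fold (log2 fold change -2.50, standard error 0.22, adjusted p = 9.64e-06 by the quasi-likelihood test of edgeR, adjusted over all 23884 genes tested). AKR1C1, a hydroxysteroid dehydrogenase that inactivates progesterone, had 280, 304 and 338 normalized counts in EV and 88.5, 84.8 and 97.5 in PRL3 libraries. It fell 3.41-fold (log2 fold change -1.77, standard error 0.26, adjusted p = 0.00015). For both paralogs no PRL3 library reached the level of any EV library. Across all genes tested, 22.7% were lower and 20.0% higher at this threshold (an adjusted p of 0.05), 42.7% in all. The PRL3 libraries lay below all EV libraries for 26.6% of genes and above them for 29.7%, so such calls were common in this comparison. Restricted to protein-coding genes, of which there were 14443, the shares were 31.6% lower and 15.2% higher. For bulk RNA of this kind, fewer cells that express a gene and less RNA per cell cannot be told apart.

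**Figure D1:**
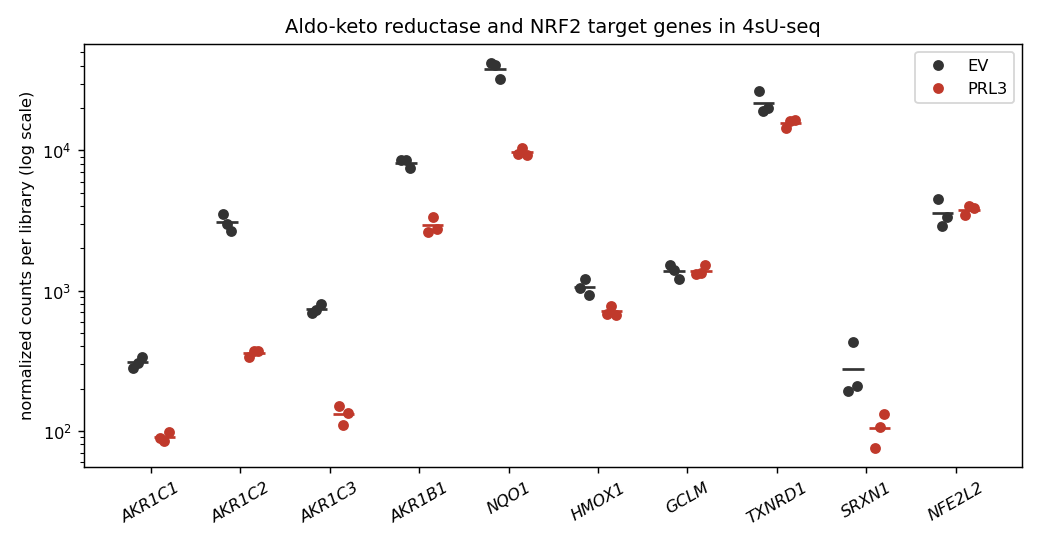
Normalized counts (log scale) of the 10 genes, with 1 point per library in black for EV (3 libraries) and red for PRL3 (3 libraries) and a line at each group mean. The PRL3 points of AKR1C1, AKR1C2, AKR1C3, AKR1B1 and NQO1 sit well below the EV points, whereas those of GCLM and NFE2L2 overlap.

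The AKR1C genes were also compared within each library, where the scaling between libraries has no part. Reads of AKR1C1 per read of AKR1C3, a ratio without the gene used for the choice, were 0.40, 0.42 and 0.42 in EV libraries and 0.59, 0.78 and 0.73 in PRL3 libraries. The groups did not overlap, with a log2 difference of 0.75 (two-sided exact permutation test, p = 0.1, the smallest that 3 libraries against 3 allow). Shares of the summed reads of the 3 genes have AKR1C2 as most of their sum and therefore restate its low counts, so they are given as a description only. AKR1C2 made up 78.4%, 74.3% and 70.1% in EV libraries and 58.4%, 65.5% and 61.4% in PRL3 libraries. AKR1C3 made up 15.4%, 18.1% and 21.0% in EV libraries and 26.1%, 19.4% and 22.3% in PRL3 libraries, and AKR1C1 6.20%, 7.60% and 8.89% in EV and 15.5%, 15.1% and 16.2% in PRL3 libraries. The smallest of these sums, 555 reads in PRL3 B9, gave exact 95% binomial intervals of 54.2% to 62.5% for AKR1C2 and 12.6% to 18.8% for AKR1C1, which cover counting error only. The counting could have split or lost reads between the paralogs, and reads set aside were more frequent in EV libraries. Per 100 uniquely aligned reads there were 23.7 to 40.1 alignments to several places in EV libraries and 9.94 to 15.8 in PRL3 libraries. The part of this in the ratios was not tested. Of all stretches of 150 bases in the canonical transcripts, 17.2% of those of AKR1C2, 7.91% of those of AKR1C1 and 2.12% of those of AKR1C3 were found unchanged in a transcript of another gene, in each case an AKR1C paralog.

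**Figure D2:**
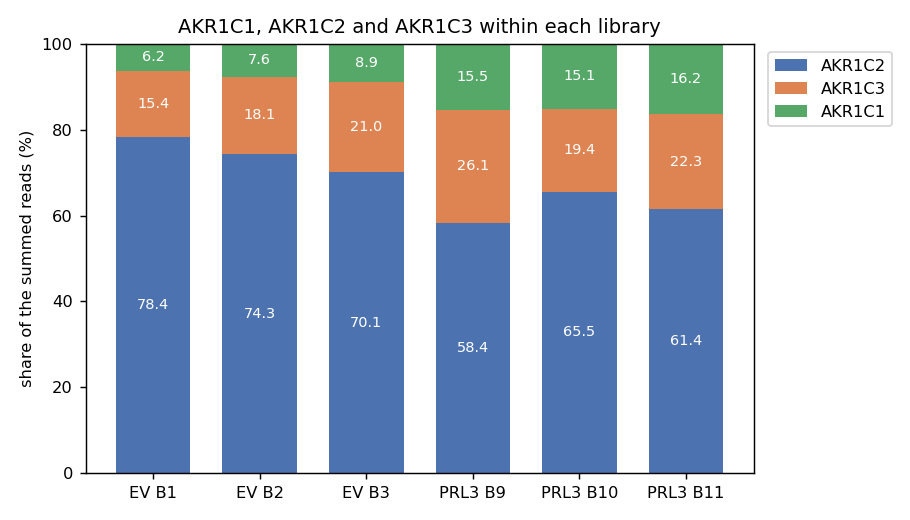
Shares of AKR1C1, AKR1C2 and AKR1C3 in the summed reads of the 3 genes, in percent, with 1 bar for each of the 3 EV and 3 PRL3 libraries. AKR1C2 takes 70.1% to 78.4% in EV libraries and 58.4% to 65.5% in PRL3 libraries.

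Per kilobase of exon, AKR1C2 was the most abundant of the 3 in EV cells, at 10.7 ± 1.55 RPKM (reads scaled to the length of the merged exons in kilobases and to the TMM-scaled library size, SD, n = 3), followed by AKR1C3 at 4.03 ± 0.29 and AKR1C1 at 0.75 ± 0.071. The order was the same in PRL3 cells, at 1.25 ± 0.071, 0.71 ± 0.11 and 0.22 ± 0.016 RPKM. None of the neighbours in this order overlapped within a group. AKR1C4, the liver paralog, had at most 2 reads in any library and AKR1C8 at most 13, and neither passed the filter on low counts.

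AKR1B1 (ENSG00000085662, chr7:134442356-134459284), the aldose reductase that turns glucose into sorbitol, was far more abundant than the AKR1C genes, at 47.6 ± 3.30 RPKM in EV cells. It had 8513, 8525 and 7534 normalized counts in EV and 2634, 3375 and 2734 in PRL3 libraries. It fell 2.81-fold (log2 fold change -1.49, standard error 0.15, edgeR adjusted p = 1.57e-05). Its neighbours AKR1B10, a classical NRF2 target, and AKR1B15 were too low to test, with 4 to 15 reads and 0 reads per library.

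NQO1 (ENSG00000181019, chr16:69706996-69726668), which reduces quinones to hydroquinones and is the standard reporter of NRF2 activity, was the most abundant of the 10 genes, at 273 ± 36.9 RPKM in EV cells. It had 41862, 40504 and 32317 normalized counts in EV libraries and 9460, 10475 and 9203 in PRL3 libraries. It fell 3.94-fold (log2 fold change -1.98, standard error 0.16, edgeR adjusted p = 7.44e-06), and its groups did not overlap. Of the NRF2 target genes chosen besides the aldo-keto reductases (NQO1, HMOX1, GCLM, TXNRD1 and SRXN1), this was the largest fall.

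HMOX1 (ENSG00000100292, chr22:35380361-35394214), the enzyme that opens heme to biliverdin, had 1040, 1208 and 927 normalized counts in EV and 682, 779 and 672 in PRL3 libraries. TXNRD1 (ENSG00000198431, chr12:104215779-104350307), the cytosolic thioredoxin reductase, had 26326, 19054 and 20089 in EV and 14488, 16278 and 16386 in PRL3 libraries. The groups did not overlap in either gene, but the falls were small, 1.49-fold for HMOX1 (log2 fold change -0.57, standard error 0.17, edgeR adjusted p = 0.0177) and 1.39-fold for TXNRD1 (log2 fold change -0.47, standard error 0.16, edgeR adjusted p = 0.0314). Neither call was firm. HMOX1 did not pass the threshold without EV B2 (log2 fold change -0.45), PRL3 B9 (-0.53) or PRL3 B11 (-0.52), nor with upper-quartile scaling (-0.40), library size alone (-0.078), protein-coding genes only (-0.39) or an adjusted p of 0.01. TXNRD1 did not pass without EV B1 (-0.32), PRL3 B9 (-0.41), PRL3 B10 (-0.49) or PRL3 B11 (-0.49), nor with upper-quartile scaling (-0.29), protein-coding genes only (-0.29) or an adjusted p of 0.01, and its direction turned with library size alone (0.020).

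SRXN1 (ENSG00000271303, chr20:646615-653200), which repairs over-oxidized peroxiredoxins, had 192, 433 and 207 normalized counts in EV and 75.2, 106 and 132 in PRL3 libraries. The EV libraries were uneven, with B2 far above the other two, and the groups did not overlap. It fell 2.65-fold (log2 fold change -1.41, standard error 0.36, edgeR adjusted p = 0.00649), and by 0.92 on the log2 scale without EV B2. Its count covers a small part of the gene, because 90.7% of its exonic bases are also exons of a readthrough gene on the same strand (ENSG00000270299), and reads that fit both genes are set aside by the counter. The readthrough gene itself had 0 reads in all 6 libraries.

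GCLM (ENSG00000023909, chr1:93885199-93909456), the modifier subunit of the enzyme that starts glutathione synthesis, did not follow AKR1C2. It had 1517, 1397 and 1215 normalized counts in EV and 1319, 1336 and 1514 in PRL3 libraries, so the groups overlapped. Its log2 fold change was 0.014 (95% interval -0.33 to 0.36, edgeR adjusted p = 0.953), with a sign that varied between alternatives. NFE2L2 (ENSG00000116044, chr2:177218667-177392756) had 4483, 2901 and 3372 normalized counts in EV and 3448, 4020 and 3859 in PRL3 libraries. The groups overlapped here too, with a log2 fold change of 0.075 (95% interval -0.30 to 0.45, edgeR adjusted p = 0.759). Both intervals leave out a change of the size seen for AKR1B1 or NQO1. With library size alone GCLM and NFE2L2 passed the threshold as higher (0.51 and 0.57), and with all uniquely aligned reads as the library size GCLM passed it as lower (-0.47).

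**Figure D3:**
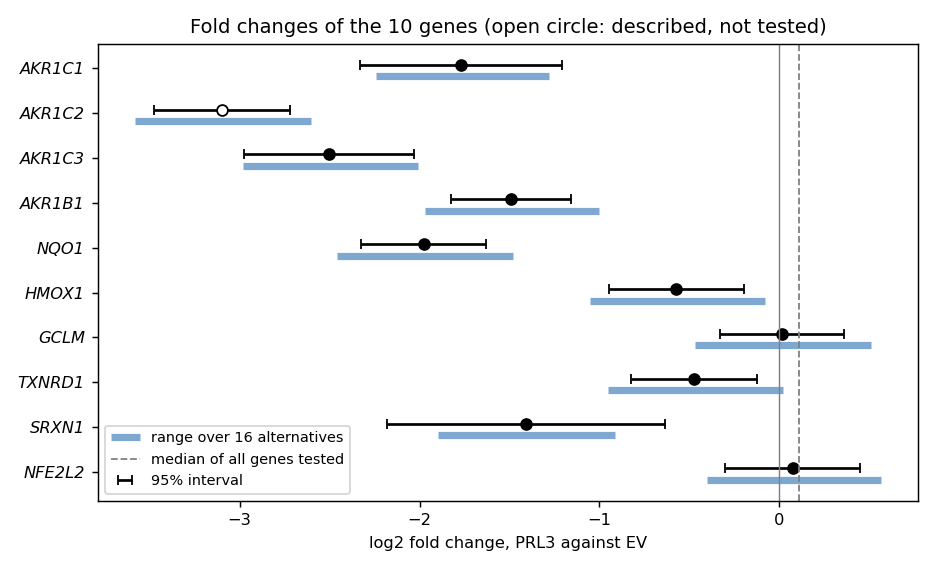
Log2 fold changes of the 10 genes, PRL3 against EV, as points with 95% intervals, beside the range over the 16 alternative settings in blue. The open circle is AKR1C2 (described, not tested), the dashed line is the median of all 23884 genes (0.11), and the ranges of GCLM, NFE2L2 and TXNRD1 cross 0.

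Of the 9 genes other than AKR1C2, all tested, edgeR called 7 lower and 0 higher. Among all genes 22.7% were lower, and among protein-coding genes 31.6%. The same 7 members had no overlap between groups, with PRL3 below EV, as had 26.6% of all genes. The unadjusted p of edgeR, DESeq2 and limma-voom also gave 7 lower and 0 higher. With a stricter adjusted p of 0.01, 5 of the 9 were lower. The 9 had a median log2 fold change of -1.41, compared with 0.11 over the whole table and -0.15 over its protein-coding genes. With library size alone 5 were lower and 2, GCLM and NFE2L2, were higher. AKR1C1, AKR1C3, AKR1B1, NQO1 and SRXN1 were lower and past the threshold under each of the 16 alternatives run.

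Calls in this comparison moved with the level of a gene. Among protein-coding genes, 9.33% of the quartile with the lowest level per kilobase of exon were lower in PRL3 cells, 21.9% and 33.2% of the next quartiles, and 62.2% of the quartile with the highest level. Calls moved with the span of a gene as well, with 47.4% lower in the shortest quartile and 14.2% in the longest. NQO1, AKR1B1 and TXNRD1 belonged to the quartile with the highest level, and HMOX1, GCLM, NFE2L2 and AKR1C2 to the next. AKR1C3 and SRXN1 belonged to the one below, and AKR1C1 to the lowest. The level of SRXN1 is understated, because reads on the 90.7% of its exonic bases shared with the readthrough gene are set aside. Its quartile is therefore not a measure of its level. AKR1C1 and AKR1C3 were thus lower at levels where fewer genes were called lower. Most genes in the quartile of NQO1 and AKR1B1 were called lower as well. The median log2 fold change of that quartile was -0.68, against -1.98 for NQO1 and -1.49 for AKR1B1. By the span annotated in GENCODE, TXNRD1 (135 kb) and NFE2L2 (174 kb) belonged to the longest quartile. AKR1C3 (72.3 kb) belonged to the next and SRXN1 (6.59 kb) to the shortest. The other members, among them GCLM (24.3 kb), HMOX1 (13.9 kb) and AKR1C2 (30.3 kb), belonged to the quartile between. The RefSeq starts of NFE2L2, AKR1C2 and AKR1C3 lay well inside their annotated spans, so their spans from those starts are shorter. Their quartiles by those shorter spans could differ. For AKR1C3 the window before the canonical start ended at chr10:5094413, in a gene annotated from 5035354 to 5107686. The part of level and span in the members' changes was not tested.

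**Figure D4:**
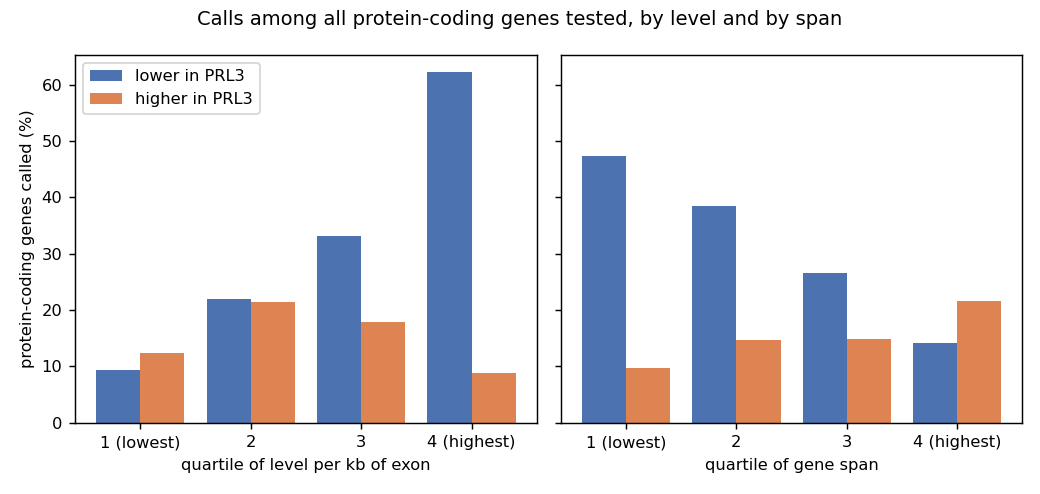
Percentage of the 14443 protein-coding genes tested that were called lower (blue) or higher (orange) in PRL3 cells, by quartile of level per kilobase of exon (left) and of gene span (right). Lower calls climb from 9.33% to 62.2% with level and decline from 47.4% to 14.2% with span.

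Other redox and NRF2 pathway genes were taken from 9 lists of 88 symbols in all. Of these, 87 were matched and 78 passed the filter on low counts. The lists hold NRF2 target genes, regulators of NRF2 and other redox genes together, so their counts do not measure the NRF2 response alone. SOD2 was not matched. In PRL3 cells 50 of the 78 were lower by edgeR (64.1%) and 6 were higher, with a median log2 fold change of -0.80. Over protein-coding genes 31.6% were lower, with a median of -0.15, and over all genes 22.7%, with a median of 0.11. Of the 38 that belonged to the quartile of protein-coding genes with the highest level, 35 were lower, against 62.2% of that quartile. Of the 21 in the next quartile, 8 were lower, against 33.2%, and of the 11 in the one below, 7 were, against 21.9%. Of the 7 in the lowest, edgeR called 0 lower, against 9.33%, as did its unadjusted p, DESeq2 and limma-voom. By span, from the shortest quartile to the longest, 20 of 25, 19 of 23, 9 of 18 and 2 of 11 were lower, against 47.4%, 38.5%, 26.5% and 14.2% of protein-coding genes. Across the 77 protein-coding genes of these lists, the log2 fold change had a Spearman rho of -0.68 with level per kilobase and of 0.50 with span. Over all 14443 protein-coding genes rho was -0.33 and 0.30. Without PRL3 B9, 2 of the lists' genes were higher.

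The thioredoxin and peroxiredoxin list, whose enzymes reduce protein disulfides and hydrogen peroxide, had 9 of 11 genes lower and 0 higher in edgeR, with a median of -1.62. At an unadjusted p of 0.05, in DESeq2 and in limma-voom these were 10 and 0. For comparison, 31.6% of protein-coding genes were lower, and 62.2% of the quartile with the highest level. PRDX2, the peroxiredoxin best known from red cells, fell from 8359 ± 1081 to 2242 ± 353 normalized counts (SD, n = 3 in each group, log2 fold change -1.90). PRDX5 and TXN fell as well (log2 fold changes -2.44 and -2.20, edgeR adjusted p = 9.64e-06 and 9.68e-06). TXNIP, the inhibitor of thioredoxin, did not pass, at 0.14. The NADPH supply list had 5 of 6 genes lower and 0 higher in edgeR (6 and 0 by the other 3 counts), with a median of -1.34. TALDO1 and PGD of the pentose phosphate pathway fell, with log2 fold changes of -1.68 and -1.44.

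The glutathione list had 10 of 17 genes lower (58.8%, against 31.6% of protein-coding genes) and 0 higher in edgeR, with a median of -0.78. It had 11 and 0 at an unadjusted p of 0.05, and 10 and 0 in DESeq2 and in limma-voom. GSTP1, a glutathione S-transferase, fell from 39310 ± 6514 to 7832 ± 903 normalized counts (log2 fold change -2.33, adjusted p = 4.88e-06), and GPX4, which reduces lipid peroxides, fell from 4426 ± 959 to 830 ± 149 (log2 fold change -2.41, edgeR adjusted p = 7.44e-06, SD, n = 3). GSS, the second enzyme of glutathione synthesis, fell by 1.54 on the log2 scale. GCLC and SLC7A11, named whatever their values, did not pass. GCLC, the catalytic partner of GCLM, had 2035 ± 243 normalized counts in EV and 2056 ± 130 in PRL3 libraries (log2 fold change 0.015, adjusted p = 0.948, higher and past the threshold with library size alone at 0.51 and lower and past it with all uniquely aligned reads at -0.47). SLC7A11, the cystine importer, had a log2 fold change of -0.30 (adjusted p = 0.128), which turned to 0.20 with library size alone and passed the threshold as lower with all uniquely aligned reads (-0.78).

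The heme and iron list had 7 of 9 genes lower (77.8%, against 31.6% of protein-coding genes) and 1 higher, with a median of -1.13. BLVRB and BLVRA, the reductases that turn biliverdin into bilirubin downstream of HMOX1, fell (log2 fold changes -2.37 and -2.20), and FTL, the ferritin light chain, fell from 76213 ± 9607 to 17534 ± 3422 normalized counts (log2 fold change -2.12). HMOX1 itself had -0.57. Reads of genes with processed copies in the genome, such as FTL and TXN, may have been lost where they aligned to several places. The higher gene was ABCB6, a porphyrin transporter, at 0.98.

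The quinone and carbonyl detoxification list had 6 of 10 genes lower (60.0%, against 31.6% of protein-coding genes) and 1 higher, with a median of -0.54. CBR1, CBR3 and EPHX1, which encode carbonyl reductases and an epoxide hydrolase, fell (log2 fold changes -1.30, -1.21 and -1.09), and TRIM16 was the higher gene, at 0.50. NQO2, the relative of NQO1, had a log2 fold change of -0.30 and did not pass. Of the 5 other aldo-keto reductases tested, AKR7A2 and AKR1A1 were lower (log2 fold changes -1.09 and -0.85) and AKR7L was higher (1.08, edgeR adjusted p = 0.0223). AKR7L did not pass without EV B1 (0.87), PRL3 B9 (0.90) or PRL3 B10 (1.10), and AKR1A1 did not pass with library size alone (-0.36). SOD3, SOD1 and CAT, which remove superoxide and hydrogen peroxide, were all lower (log2 fold changes -3.15, -1.44 and -1.07), and 0 of that list were higher by any of the 4 counts.

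Of the 5 ABCC transporter genes, several of which export glutathione conjugates, 0 were lower by any of the 4 counts and ABCC2 was higher, from 3188 ± 292 to 4672 ± 467 normalized counts (SD, n = 3, log2 fold change 0.55, edgeR adjusted p = 0.00932). ABCC2 did not pass without PRL3 B9 (0.48) or with all uniquely aligned reads (0.072). Whether the list differed from the 22.7% of all genes that were lower, or from the other lists, was not tested.

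**Figure D5:**
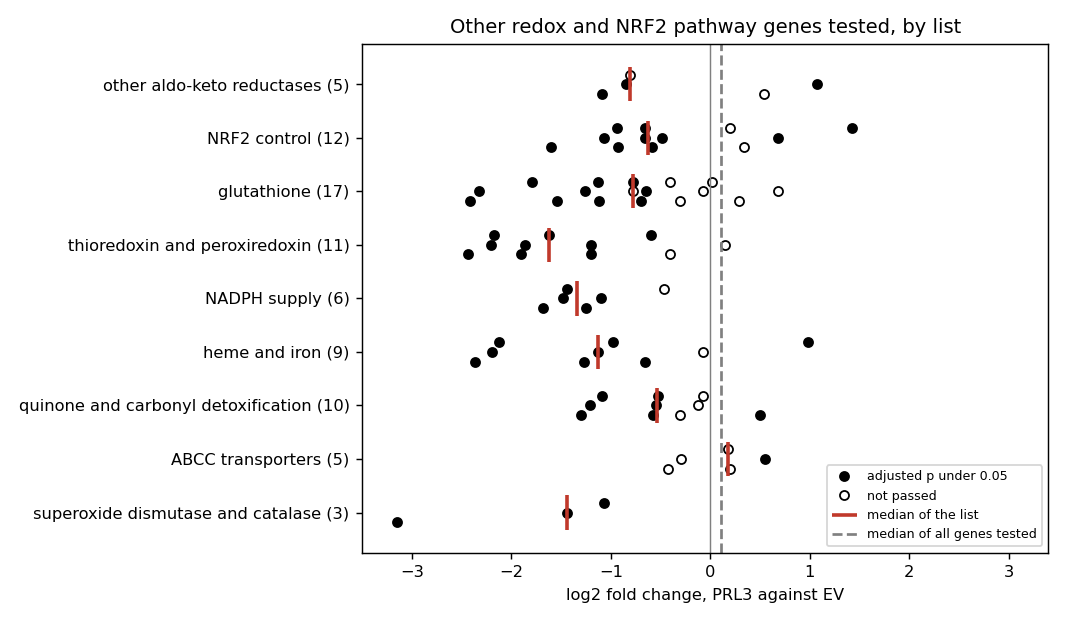
Log2 fold changes, PRL3 against EV, of the 78 tested genes of the 9 lists, 1 point per gene, filled where the adjusted p was under 0.05, with a red bar at the median of each list and a dashed line at the median of all genes tested (0.11). The medians of the thioredoxin, NADPH, heme and superoxide dismutase lists lie below -1, and that of the ABCC transporters is 0.18.

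The NRF2 control list had 8 of 12 genes lower (66.7%, against 31.6% of protein-coding genes) and 2 higher, with a median of -0.62. In the quartile of protein-coding genes with the highest level, 62.2% were lower. Among the genes that remove NRF2, KEAP1 fell from 7001 ± 845 to 3680 ± 754 normalized counts (log2 fold change -0.93, edgeR adjusted p = 0.000834). RBX1, the RING subunit of the CUL3 ligase, fell as well (log2 fold change -1.60). CUL3 did not pass, at 0.34, and BTRC, on the same list, was lower (-0.66). SQSTM1 is not one of the genes that remove NRF2. It encodes an autophagy receptor that binds KEAP1, is itself an NRF2 target and fell too (log2 fold change -1.06). BACH1 and BACH2, repressors that compete at antioxidant response elements, were the 2 higher genes, at 0.68 and 1.42. Of the small MAF partners, MAFG and MAFK were lower (-0.59 and -0.66) and MAFF did not pass (0.19). NFE2L3, a relative of NFE2L2, fell by 0.94.

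RefSeq promoter windows were found for 9 of the 10 genes, with 13 windows in all, and none was found for HMOX1. They were searched on both strands for TGACNNNGC, the core of the antioxidant response element. The motif was found in 3 of these windows, 1 at GCLM and 1 at each of the 2 starts of TXNRD1, and in 10.9% of 35116 windows of all genes. These are the stretches around it, on the strand of the gene and 5′ to 3′, with the match in capitals, shown because they are the only matches among the members' windows.
GCLM: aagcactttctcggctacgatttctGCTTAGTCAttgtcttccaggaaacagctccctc
TXNRD1 first start: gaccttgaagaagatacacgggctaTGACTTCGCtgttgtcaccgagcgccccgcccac
TXNRD1 second start: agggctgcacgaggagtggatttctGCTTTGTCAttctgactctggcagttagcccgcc
The stretches are chr1:93909431-93909489 (minus strand), chr12:104215655-104215713 and chr12:104286905-104286963 (plus strand) of GRCh38.p14. The match ended 26 bases before the start of GCLM, and 91 and 94 bases before the starts of TXNRD1. The windows of the 3 AKR1C genes printed above, and those of AKR1B1, NQO1, SRXN1 and NFE2L2, had no match, which says only that these letters are not in the 250 bases searched.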

How the data were processed

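Per the labels, the processing notes and the study's methods, the authors checked paired reads with FastQC 0.11.3, aligned them to GRCh38 with STAR 2.5.1b and counted them per gene of Ensembl release 91 with htseq-count 0.6.1 and its reverse-strand option. The deposited values are these raw counts. Reads on several genes or aligning to several places are not in them, which bears on paralogs and readthrough genes. Symbols, exon lengths and coordinates came from GENCODE 44 on the same build (57532 of 58243 identifiers matched). The test was that of edgeR 4.0.16 in R 4.3.3 (TMM, filterByExpr by group, quasi-likelihood test, Benjamini-Hochberg adjustment over 23884 genes, threshold 0.05), with no covariate. Alternatives were DESeq2 1.42.0, limma-voom (limma 3.58.1), RLE, upper-quartile and library-size scaling, all uniquely aligned reads as library size, no filter, at least 10 counts in every library, protein-coding genes only, an adjusted p of 0.01 and leaving out each library. No libraries held the same counts (the lowest mean chi-square per gene between libraries was 24.7), so none was merged, which does not show separate cultures. Members and lists were chosen by function with earlier results of these data known. Named are the members, KEAP1, GCLC and SLC7A11, PTP4A3, the 3 nearest profiles to AKR1C2 and up to 3 genes per list with the smallest p that passed without overlap (leaving out 1 that is not given here); CUL3, BACH1, BACH2, MAFF, MAFG, MAFK, TXNIP, NQO2, ABCB6, TRIM16 and the untested aldo-keto reductases and markers were added after their values were seen. Sequences were aligned with Biopython 1.88.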

Additional observations from a re-analysis of the deposited data

Results flagged for a closer look

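The counter's own summary lines, which hold no counts of single genes, were compared as well. Of uniquely aligned reads, 66.3% ± 3.20 (SD, n = 3) lay on no annotated exon of the right strand in the PRL3 group, against 33.3% ± 6.77 (SD, n = 3) for EV, without overlap between groups (two-sided exact permutation test, p = 0.1, the smallest that 3 libraries against 3 allow). Reads that fitted several genes made up 4.46% to 5.01% of uniquely aligned reads in EV libraries and 1.67% to 2.53% in PRL3 libraries. Alignments to several places numbered 23.7 to 40.1 and 9.94 to 15.8 per 100 uniquely aligned reads. The part of these differences in the fold changes of the AKR1C and NRF2 target genes was not tested.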

How the results depend on the processing

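The direction and call of AKR1C1, AKR1C3, AKR1B1, NQO1 and SRXN1 held under all 16 alternatives, and AKR1C2 had log2 fold changes between -3.58 and -2.60. Of 144 alternative values for the 9 tested genes, 120 kept direction and call. The cause of the changes below was not tested, except that the alternatives that leave out a library have fewer samples. With library size alone 3078 genes of the whole table were lower and 9514 higher, 2 of the 9 genes and 17 of the wider lists were higher, and TXNRD1 (0.020) and SLC7A11 (0.20) reversed. With all uniquely aligned reads 8473 genes were lower and 1952 higher, 1 of the wider lists was higher, and the median of all genes (-0.36), GCLM (-0.47), GCLC (-0.47) and NFE2L2 (-0.40) reversed. At an adjusted p of 0.01, 2719 genes and 3 of the wider lists were higher. Signs of values near 0 also reversed for GCLM (-0.025 with RLE, -0.014 with DESeq2, and -0.075 and -0.042 without EV replicate B3 or PRL3 replicate B11), for GCLC (-0.022 with RLE, -0.011 with DESeq2, and -0.035, -0.020 and -0.021 without EV replicate B2, EV replicate B3 or PRL3 replicate B11) and for NFE2L2 (-0.043 without EV replicate B2). Over the 6 fits with 1 library left out, the highest values were 0.088 for GCLM, 0.12 for GCLC and 0.27 for NFE2L2, each without EV replicate B1. Leaving out 1 library gave between 2 and 7 higher genes in the wider lists. No paired analysis was possible because EV and PRL3 libraries are numbered differently in the labels. An exact test of 3 against 3 cannot give a p under 0.1.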
